A study of Mus musculus with 10 samples.

Results

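Arterial zonation in brain endothelial cells (BECs) of an Alzheimer's disease model was described through 10 marker genes, Bmx, Efnb2, Gkn3, Sema3g, Vegfc, Mgp, Fbln5, Gja4, Gja5 and Sox17. They were chosen by name, and all 10 were found among the 14106 genes of the deposited log2 CPM table by their GENCODE symbols. A log2 CPM value is the log2 of a gene's count scaled to the total of its library (CPM). Bulk RNA sequencing had been run on 10 libraries, 5 labelled APP/PS1 and 5 labelled WT, the latter called controls, all from mice 1 year old. According to the methods the mice were female and shared a C3H/BL6 background, the APP/PS1 mice carried the APPswe and PS1∆E9 transgenes, the meninges were removed, and CD31+ CD45- cells were enriched from the cortex with magnetic beads. The promoter of the transgenes, and whether a library held the cells of 1 mouse or of several, are not given in the sources used here. Each SD given with a mean is therefore the spread between libraries after batch correction.

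Endothelium changes its gene programme along the vascular tree, from arteries through capillaries to veins. Arterial endothelium is specified by Notch and SOXF signalling, is marked by the ligand ephrin-B2, and couples its cells and the underlying smooth muscle through connexins, whereas venous endothelium depends on the nuclear receptor COUP-TFII, the product of Nr2f2. In the brain the capillaries hold most endothelial cells and carry much of the transport of the blood-brain barrier, and arterial cells are a minority. In a bulk library, fewer arterial cells and less RNA of these genes in each arterial cell cannot be told apart.

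The libraries differed in depth and had been corrected for batch by the authors. The adjusted counts behind the values, which are counts after batch correction and not reads, summed to between 22371766 and 126686149 per library, and both libraries of replicate 1 were the shallowest. The same replicate number was carried by 1 control and 1 APP/PS1 library, and the correction had set the means of these pairs nearly equal. For the 10 arterial genes the SD of the pair mean over 5 replicates was between 0.0034 and 0.0496 log2 units, against between 0.210 and 0.761 for the SD of the difference within a pair. A library that is high for a gene is therefore mirrored by a low partner, and which of the pair departed from the others cannot be told apart. The SD of a group thus comes mainly from the differences within pairs and is not the spread of 5 independent libraries. The labelled cell type was checked with 10 markers shared by all endothelium, among them Pecam1 and Flt1, whose summed level was 15829 to 16709 CPM in controls and 16269 to 17187 CPM in APP/PS1 libraries.

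The promoters of 8 arterial genes were matched in the RefSeq table of build GRCm38.p6, with 9 windows in all, while Mgp and Sox17 were not matched. The 250 bases upstream of each start were searched on both strands for the letters ACAAT, the core bound by SOX factors. The search also covered GTGGGAA, bound by the Notch effector RBPJ, CCGGAA, an ETS site, and TATAAA, the TATA box. The 3 windows that held any of them are shown 5′ to 3′ with the matches in capitals. The SOX core was found upstream of Bmx (chrX:164258194-164258443, minus strand), once in each orientation, and of Gja4 (chr4:127314040-127314289, minus strand). A TATA box in reverse orientation was found upstream of Efnb2 (chr8:8661243-8661492, minus strand).
Bmx: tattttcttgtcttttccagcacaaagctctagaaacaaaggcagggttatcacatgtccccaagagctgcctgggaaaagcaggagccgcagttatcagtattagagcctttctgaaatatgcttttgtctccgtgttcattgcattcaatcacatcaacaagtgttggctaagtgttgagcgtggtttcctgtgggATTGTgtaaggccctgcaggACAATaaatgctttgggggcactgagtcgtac
Gja4: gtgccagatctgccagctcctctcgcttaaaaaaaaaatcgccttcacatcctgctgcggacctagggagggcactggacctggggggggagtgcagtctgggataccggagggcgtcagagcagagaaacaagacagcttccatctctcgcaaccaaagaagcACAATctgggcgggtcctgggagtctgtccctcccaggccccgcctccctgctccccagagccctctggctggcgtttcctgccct
Efnb2: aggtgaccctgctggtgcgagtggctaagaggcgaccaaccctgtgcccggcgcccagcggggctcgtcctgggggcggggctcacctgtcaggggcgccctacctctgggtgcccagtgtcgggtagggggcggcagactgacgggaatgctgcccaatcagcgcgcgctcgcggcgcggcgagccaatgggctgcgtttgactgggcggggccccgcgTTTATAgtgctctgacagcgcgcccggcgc
The SOX core was thus present in 2 of 9 windows, and in 27.7% of the 32851 mouse promoter windows of the same length. RBPJ letters were present in 0 of 9 windows and in 5.42% of all windows, ETS letters in 0 of 9 and in 12%, and the TATA box in 1 of 9 and in 12.4%. These are matches of letters and not sites of binding, and whether they have a part in the levels of the genes was not tested.

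The arterial genes were well expressed. Divided by exon length, the mean level over 10 libraries was highest for Mgp, at 8.38 log2 CPM per kilobase, a level exceeded by few genes since 99.5% of all genes lay below it. Gkn3 followed at 7.49 and Sema3g at 7.36 log2 CPM per kilobase, and the ranges of these neighbours overlapped. Sox17 was at 6.49 and Bmx at 5.50 log2 CPM per kilobase, each clear of its neighbours in all 10 libraries. Vegfc at 4.68, Gja4 at 4.5, Efnb2 at 4.47 and Fbln5 at 3.96 log2 CPM per kilobase formed a run in which each range overlapped the next. Gja5 was the lowest, at 1.36 log2 CPM per kilobase with 33.4% of all genes below it, and no library of Gja5 reached the range of Fbln5.

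None of the 10 arterial genes was called between APP/PS1 and control BECs, and 8 of the 10 had a log2 fold change (log2FC, given with its standard error, SE) above 0. Differential expression was tested with lmFit and eBayes of limma on all 14106 genes, with the replicate number as a block, with Benjamini-Hochberg adjustment. At an adjusted p under 0.05 the test called 0 of 10 arterial genes and 0 of all genes (0%), and it called 0 arterial genes when the block was left out (4.59% of all genes) or replaced by the 4 batches of the labels (0.00709%). Higher in APP/PS1 in all 5 replicates were 0 of 10 arterial genes and 2.99% of all genes, and lower in all 5 were 0 of 10 and 5%. The smallest adjusted p of an arterial gene from limma was 0.671, for Sox17. At an unadjusted p under 0.05 there were 0 of 10 arterial genes, compared with 8.03% of all genes. The values of both groups overlapped in each of the 10 genes, where 7.88% of all genes showed no overlap. The share of all genes with a log2FC above 0 was 48.2%. The median log2FC was 0.069 for the arterial genes and −0.0038 for all genes. The 10 genes shared by all endothelium had 9 of 10 above 0 and a median of 0.057, and the 2 lists were not tested against each other. By library size alone 5 of these 10 were above 0, and the arterial count of 8 became 7 when libraries were scaled by their size alone, 5 without replicate 1 and 4 without replicate 4.

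**Figure D1:**
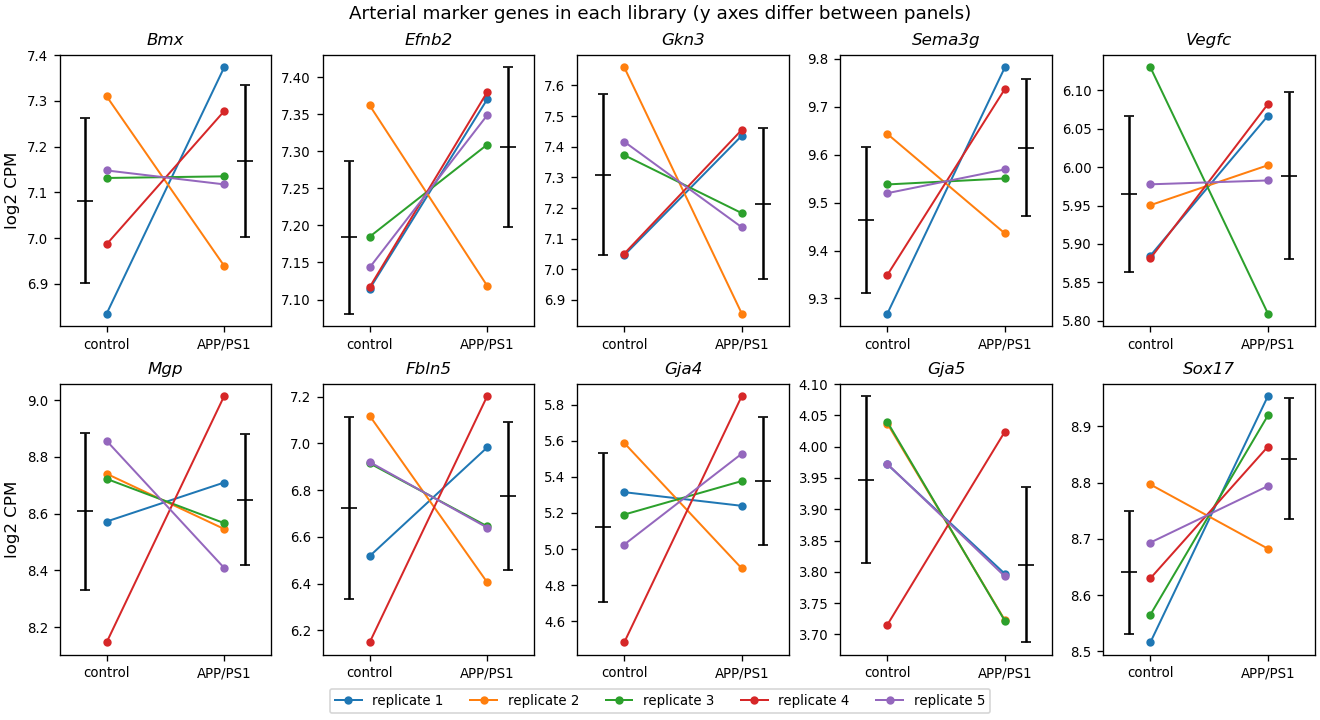
Levels of the 10 arterial genes in log2 CPM (y axis, a separate scale for each gene) in control and APP/PS1 libraries. Each line joins the control and the APP/PS1 library of 1 replicate number, and black bars show the mean and SD of the 5 libraries of a group. In the APP/PS1 library of replicate 4 all 10 genes lie above their partner, and in that of replicate 2 all but Vegfc lie below it.

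Sox17 encodes a SOXF transcription factor required for arterial identity and lies at chromosome 1 from 4490931 to 4497354 of GRCm38. It was measured at 8.52, 8.80, 8.57, 8.63 and 8.69 log2 CPM in control replicates 1 to 5 and at 8.95, 8.68, 8.92, 8.86 and 8.79 log2 CPM in the APP/PS1 libraries of the same numbers. Sox17 was higher in 4 of 5 APP/PS1 libraries than in their partners, and replicate 2 had the opposite order. Its means were 8.64 ± 0.11 and 8.84 ± 0.11 log2 CPM (SD, n = 5 each), a log2FC of 0.20 (SE 0.0898, 95% interval −0.0191 to 0.42, adjusted p = 0.671 from limma). The unadjusted p of Sox17 was 0.0665 with the replicate block, 0.0126 without it, 0.0424 with a mean-variance trend and 0.0248 by limma-voom, while its adjusted p was never below 0.112 under any of these fits of limma. The antisense gene Gm37587 covers 16.8% of the exonic bases of Sox17. No setting for strand is given in the sources used here, so reads of these shared bases cannot be told apart. Gm37587, at 2.09 log2 CPM against 8.74 for Sox17 over all libraries, had a log2FC of 0.25 (SE 0.121, adjusted p = 0.709 from limma).

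Efnb2, at chromosome 8 from 8617434 to 8661242, encodes ephrin-B2, the transmembrane ligand that marks arteries and binds the venous receptor EphB4. Its levels were 7.11, 7.36, 7.18, 7.12 and 7.14 log2 CPM in control replicates 1 to 5 and 7.37, 7.12, 7.31, 7.38 and 7.35 log2 CPM in the APP/PS1 libraries. Replicate 2 again stood apart in both groups, with the highest control and the lowest APP/PS1 value. The log2FC of Efnb2 was 0.12 (SE 0.0875, 95% interval −0.0948 to 0.34, adjusted p = 0.823 from limma). Without replicate 2 it was 0.21 and the groups of 4 libraries no longer overlapped, as was also the case for Sox17 and Sema3g. These genes were lower in replicate 2 alone and pairs had been centred, so leaving it out largely fixed this outcome in advance. In the fit without replicate 2, 24.9% of all genes did not overlap. Sox17 and Efnb2 had an unadjusted p under 0.05 in it, as had 14.2% of all genes. The adjusted p from limma was 0.242 for Efnb2 and 0.258 for Sox17.

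Sema3g encodes a secreted class 3 semaphorin of arterial endothelium (chromosome 14, 31217860 to 31230352), and Bmx encodes a TEC family tyrosine kinase of arterial endothelium (chromosome X, 164192842 to 164258193). Sema3g was at 9.27, 9.64, 9.54, 9.35 and 9.52 log2 CPM in the controls and at 9.78, 9.44, 9.55, 9.74 and 9.57 log2 CPM in the APP/PS1 libraries, a log2FC of 0.15 (SE 0.116, adjusted p = 0.832 from limma). The lowest control and the highest APP/PS1 value of Sema3g were both those of replicate 1. Bmx was at 6.83, 7.31, 7.13, 6.99 and 7.15 log2 CPM in the controls and at 7.37, 6.94, 7.13, 7.28 and 7.12 log2 CPM in the APP/PS1 libraries. Its log2FC was 0.09 (SE 0.134, 95% interval −0.24 to 0.42, adjusted p = 0.908 from limma). The direction of Bmx rested on replicate 1, without which the log2FC was −0.027, whereas that of Sema3g did not change without any single replicate and lay between 0.06 and 0.24.

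Vegfc encodes a growth factor for the receptors VEGFR-3 and VEGFR-2 and lies at chromosome 8 from 54077606 to 54187096. It was among the least variable arterial genes, at 5.88, 5.95, 6.13, 5.88 and 5.98 log2 CPM in the controls and at 6.07, 6.0, 5.81, 6.08 and 5.98 log2 CPM in the APP/PS1 libraries. Vegfc had a log2FC of 0.024 (SE 0.0871, 95% interval −0.19 to 0.24, adjusted p = 0.964 from limma). It came to −0.016 when replicate 1 was left out, to −0.020 when replicate 4 was, and to 0.11 without replicate 3, in which the APP/PS1 library was 0.32 log2 units below the control.

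The connexin genes Gja4 and Gja5, which encode the gap junction proteins Cx37 and Cx40 of arterial endothelium, had mean log2FC values of opposite sign. Gja4, at chromosome 4 from 127311421 to 127314039, was at 5.32, 5.59, 5.19, 4.48 and 5.03 log2 CPM in control replicates 1 to 5 and at 5.24, 4.89, 5.38, 5.85 and 5.53 log2 CPM in the APP/PS1 libraries. The APP/PS1 library exceeded its control by 1.37 log2 units in replicate 4 and was lower by 0.70 log2 units in replicate 2, the widest swing of the set, so that 94.6% of all genes had a smaller SD of differences. Gja4 had the largest log2FC of the 10 genes, 0.26, with an SE of 0.285 and a 95% interval from −0.45 to 0.96 (adjusted p = 0.875 from limma). Without replicate 4 it was −0.020. Gja5, at chromosome 3 from 96904693 to 97077416, was at 3.97, 4.04, 4.04, 3.72 and 3.97 log2 CPM in the controls and at 3.80, 3.72, 3.72, 4.02 and 3.79 log2 CPM in the APP/PS1 libraries. It was lower in 4 of 5 APP/PS1 libraries, and only replicate 4 had the opposite order. The log2FC of Gja5 was −0.14 (SE 0.103, 95% interval −0.39 to 0.12, adjusted p = 0.831 from limma). Without replicate 4 the log2FC of Gja5 was −0.25, with an adjusted p of 0.693 from limma. The groups of 4 libraries did not overlap, as for 14.6% of all genes in that setting. Because pairs had been centred, leaving out the only pair of opposite order largely fixed this lack of overlap in advance. Exons of Gpr89 on the other strand share 165 bases with Gja5.

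By the range of differences over replicates, the matrix genes Fbln5 (1.77 log2 units) and Mgp (1.32) followed Gja4 (2.06). Mgp encodes matrix Gla protein, an inhibitor of vascular calcification and of BMP signalling (chromosome 6, 136872435 to 136875823), and Fbln5 encodes fibulin-5, an elastic fibre protein (chromosome 12, 101746565 to 101819055). Mgp was at 8.57, 8.74, 8.72, 8.15 and 8.86 log2 CPM in the controls and at 8.71, 8.55, 8.57, 9.02 and 8.41 log2 CPM in the APP/PS1 libraries. Fbln5 was at 6.52, 7.12, 6.91, 6.15 and 6.92 log2 CPM in the controls and at 6.98, 6.41, 6.65, 7.20 and 6.64 log2 CPM in the APP/PS1 libraries. Both were lower in the APP/PS1 library in replicates 2, 3 and 5 and higher in replicates 1 and 4, by as much as 0.87 log2 units for Mgp and 1.05 for Fbln5 in replicate 4. Their log2FC values were 0.041 for Mgp (SE 0.192, 95% interval −0.43 to 0.52, adjusted p = 0.972 from limma) and 0.051 for Fbln5 (SE 0.264, 95% interval −0.60 to 0.70, adjusted p = 0.973 from limma). Without replicate 4 these became −0.17 for Mgp and −0.20 for Fbln5, and Fbln5 was at −0.052 without replicate 1.

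Gkn3 encodes a secreted gastrokine that marks arterial endothelium of the brain (chromosome 6, 87383256 to 87388935). It was at 7.05, 7.66, 7.37, 7.05 and 7.42 log2 CPM in the controls and at 7.44, 6.86, 7.18, 7.46 and 7.14 log2 CPM in the APP/PS1 libraries. As for Mgp and Fbln5, the APP/PS1 library was the higher one in replicates 1 and 4 alone. The log2FC of Gkn3 was −0.096 (SE 0.192, 95% interval −0.57 to 0.38, adjusted p = 0.929 from limma), and 0.081 without replicate 2.

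**Figure D2:**
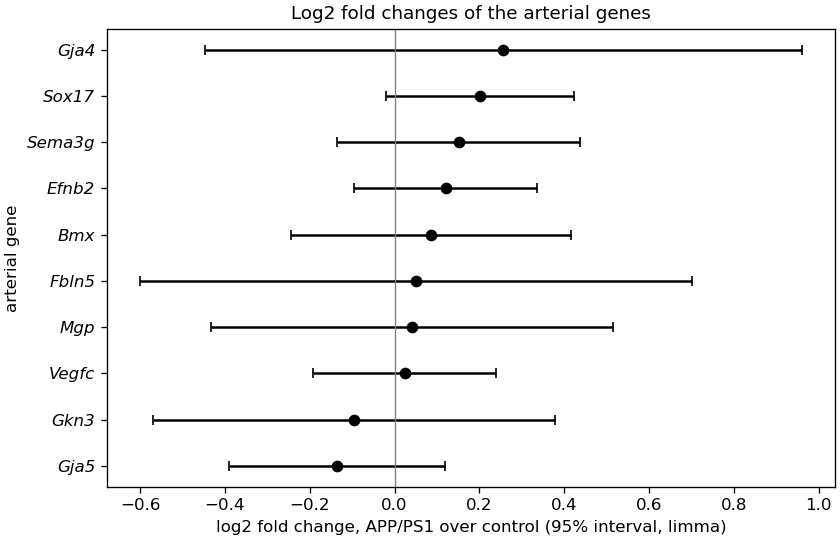
Log2 fold change of each arterial gene, APP/PS1 over control (x axis, log2 CPM scale), with its 95% interval from limma with the replicate block. All 10 intervals include 0, that of Sox17 running from −0.0191 to 0.42 and the widest, that of Gja4, from −0.45 to 0.96.

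All 95% intervals lay inside a change of 1 log2 unit in either direction, and all included 0. In the mean of 5 replicates Efnb2, Sema3g and Sox17 were higher and Gja5 was lower in APP/PS1 BECs. Each kept its direction in all alternatives tried, some of which cannot change a log2FC or hardly move it, as stated further on. None of these genes reached the adjusted threshold in any alternative. The other 6 genes took the opposite direction in at least 1 alternative. Every value of an arterial gene rested on at least 307 adjusted counts, the lowest being that of Gja5 in the APP/PS1 library of replicate 1.

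The within-replicate differences of the arterial genes varied by replicate number, and in replicates 1, 2 and 4 most of the genes shared a direction. In replicate 4 all 10 genes were higher in the APP/PS1 library, compared with 48.9% of all genes, and their median difference was 0.35 log2 units. In replicate 1 the count was 8 of 10, with Gja4 and Gja5 as the exceptions, against 49.1% of all genes, and the median difference was 0.32. In replicate 2 only Vegfc was higher, by 0.05 log2 units, against 50.3% of all genes, and the median difference was −0.28. Replicates 3 and 5 were divided, with 5 of 10 genes higher in each (48.4% and 47.8% of all genes) and median differences of −0.076 and −0.013. The 10 genes shared by all endothelium had the same directions in these replicates, with 8 of 10 higher in replicate 1, 3 in replicate 2 and 8 in replicate 4, at smaller median differences of 0.08, −0.048 and 0.096 log2 units. The median difference of all genes lay between −0.0087 and 0.0014 log2 units in the 5 replicates. The SD of the 5 differences had a median of 0.319 log2 units over the arterial genes and of 0.143 over the 10873 genes with a mean above 2 log2 CPM. Since 1 control and 1 APP/PS1 library make up a replicate, a difference between replicates has no error of its own and was not tested.

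**Figure D3:**
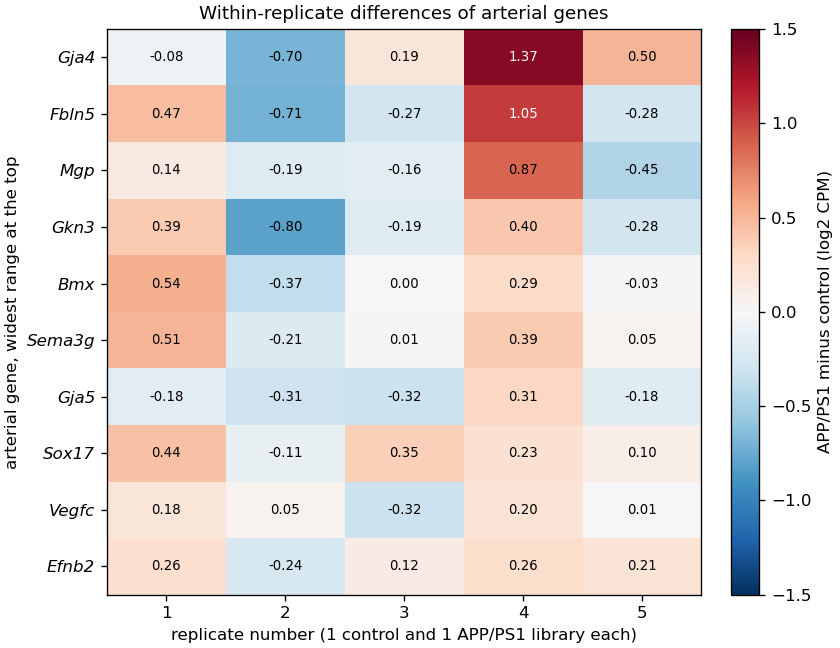
Difference between the APP/PS1 and the control library of each replicate number (columns) for each arterial gene (rows, ordered by the range over replicates), in log2 CPM; red is higher and blue lower in APP/PS1. Column 4 is red throughout, from 0.20 for Vegfc to 1.37 for Gja4, and column 2 is blue except for Vegfc.

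Several genes shared a sequence of signs over the replicates, in which each sign is that of 1 pair of libraries. Gkn3, Mgp and Fbln5 had the same sequence of signs, higher in replicates 1 and 4 and lower in replicates 2, 3 and 5. Sox17, Efnb2 and Sema3g shared another, lower in replicate 2 alone, although Sema3g differed by only 0.01 log2 units in replicate 3 and 0.05 in replicate 5. Vegfc was lower in replicate 3 alone, though it differed by only 0.005 log2 units in replicate 5, and Gja5 was higher in replicate 4 alone. Bmx was lower in replicates 2 and 5, with differences of only 0.004 log2 units in replicate 3 and −0.03 in replicate 5. Gja4 was the gene least like the rest in replicate 5, where it was higher by 0.50 log2 units while Mgp was lower by 0.45.

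A second list of 20 arterial genes held Notch signalling and its targets, guidance receptors, arterial matrix and further SOXF factors. Its medians had the same sign as those of the first list in replicates 1, 2 and 4. In replicate 5 the medians of both lists, −0.013 for the first and −0.0084 for the second, lay near the −0.0087 of all genes. Of these 20 genes, 18 were higher in the APP/PS1 library of replicate 1, 3 in replicate 2, 13 in replicate 3, 16 in replicate 4 and 10 in replicate 5. Their median differences were 0.25, −0.19, 0.01, 0.26 and −0.0084 log2 units in replicates 1 to 5. Over the 5 replicates 15 of 20 had a log2FC above 0, or 12 of 20 when scaled by library size alone, with a median of 0.060. At an unadjusted p under 0.05, 1 of 20 was higher and 0 lower, beside 8.03% of all genes in either direction, and 0 passed the adjusted threshold. That gene, named by the rule and not as a result, was Unc5b, a netrin receptor of arterial and tip cells, with a log2FC of 0.22 (SE 0.0794, adjusted p = 0.594 from limma). Notch1, the receptor through which arterial fate is set, was at 9.49 ± 0.12 log2 CPM in controls and at 9.56 ± 0.12 in APP/PS1 BECs (SD, n = 5). Acvrl1, which encodes the BMP receptor ALK1, was at 10.32 ± 0.07 and 10.35 ± 0.08 log2 CPM.

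Of 15 venous genes, 14 had a log2FC below 0 in APP/PS1 BECs, with a median of −0.28, and 7 of them had an unadjusted p under 0.05, compared with 8.03% of all genes in either direction, while 0 passed the adjusted threshold. The venous median was below the arterial median in each of the 5 replicates, at −0.38, −0.57, −0.48, −0.14 and −0.16 log2 units. Nr2f2, the regulator of venous identity, had a log2FC of −0.38 (SE 0.083, adjusted p = 0.483 from limma) and was lower in all 5 replicates. Ctsc, which encodes a lysosomal protease, had a log2FC of −0.25 and was also lower in all 5 replicates (adjusted p = 0.511 from limma). Vwf, which encodes von Willebrand factor, had a log2FC of −0.30 and was lower in 4 of 5 replicates (adjusted p = 0.581 from limma). Of 10 capillary genes 7 were higher, with a median log2FC of 0.16 and 1 gene at an unadjusted p under 0.05, the chemokine gene Cxcl12 (log2FC 0.26, adjusted p = 0.569 from limma). Spock2, the most abundant capillary gene, had a log2FC of 0.08. The capillary medians were −0.098, 0.07, 0.35, 0.09 and 0.10 log2 units in replicates 1 to 5, an order unlike that of the arterial genes. No test was made of the difference between these lists.

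**Figure D4:**
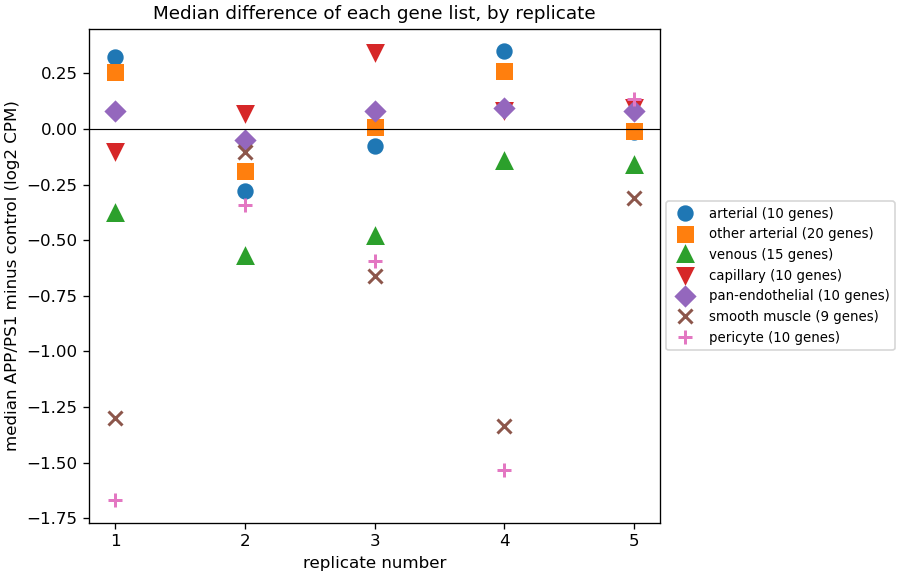
Median difference between the APP/PS1 and the control library (y axis, log2 CPM) of 7 gene lists in each replicate number (x axis). Both arterial lists lie above 0 in replicates 1 and 4 and below it in replicate 2, the venous list lies below both in every replicate, and smooth muscle and pericyte genes are lowest in replicates 1 and 4.

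Most genes of the cells that wrap arteries and capillaries had a log2FC below 0. Their medians were lowest in replicates 1 and 4, the replicates in which arterial endothelial genes were higher. This was not particular to these cells, since the medians of oligodendrocyte and neuron genes were also lowest in replicates 1 and 4. Those of fibroblast and astrocyte genes were lowest in replicates 1 and 3. The 9 smooth muscle genes tested had median differences of −1.30, −0.10, −0.66, −1.34 and −0.31 log2 units in replicates 1 to 5. Their summed level was 405 to 458 CPM in the controls and 344 to 382 CPM in APP/PS1 libraries, 8 of 9 had a log2FC below 0 (9 of 9 by library size alone), and 7 of 9 had an unadjusted p under 0.05, as had 8.03% of all genes in either direction, the share that also stands beside the counts of the lists that follow. Acta2, the smooth muscle actin, was lower in all 5 replicates (log2FC −0.84, SE 0.165, adjusted p = 0.418 from limma), as was Myh11, the smooth muscle myosin (−0.77, adjusted p = 0.553 from limma). Smtn, the most abundant gene of that list, had a log2FC of 0.020. The 10 pericyte genes summed to 552 to 965 CPM in controls and to 285 to 580 CPM in APP/PS1 libraries, all 10 had a log2FC below 0, 7 had an unadjusted p under 0.05, and their median differences were −1.67, −0.34, −0.60, −1.53 and 0.13 log2 units. Rgs5, a regulator of G protein signalling that marks pericytes, was at 8.88 ± 0.34 log2 CPM in controls and 8.12 ± 0.46 in APP/PS1 BECs (SD, n = 5) and was lower in 4 of 5 replicates, with an adjusted p of 0.607 from limma. The part of these cells in the arterial result was not tested.

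Fibroblast genes are given because fibroblasts and smooth muscle can also express Mgp and Fbln5. The 7 fibroblast genes tested summed to 45.7 to 60.4 CPM in controls and to 36.3 to 48.7 CPM in APP/PS1 libraries, and 7 of 7 had a log2FC below 0, 3 of them at an unadjusted p under 0.05. Their median differences were −1.32, −0.55, −0.74, 0.13 and −0.40 log2 units. Oligodendrocyte genes (7 tested) summed to 39.5 to 275 CPM in controls and to 32.6 to 141 CPM in APP/PS1 libraries, with medians of −4.56, 1.64, −1.85, −4.86 and −2.36 log2 units. All 7 had a log2FC below 0, 4 of them at an unadjusted p under 0.05. Of the 8 astrocyte genes 7 had a log2FC below 0, 3 of them at an unadjusted p under 0.05, with a median of −0.98. By replicate they had a median of 0.45 log2 units in replicate 2 and between −2.60 and −0.20 in the others, and summed to 171 to 209 CPM in controls and 171 to 212 CPM in APP/PS1 libraries. That sum is mostly the gap junction gene Gja1, at 7.09 ± 0.17 log2 CPM in controls and 7.36 ± 0.17 in APP/PS1 BECs (SD, n = 5), the 1 gene of the list with a log2FC above 0. The 3 neuron genes tested summed to 6.57 to 8.13 CPM in controls and 4.74 to 6.08 CPM in APP/PS1 libraries, and 3 of 3 had a log2FC below 0, 2 of them at an unadjusted p under 0.05. The 7 microglia genes summed to 55.7 to 65.9 and 53.0 to 63.0 CPM, and the 4 erythroid genes to 29.3 to 241 and 14.2 to 153 CPM. Of these, 4 of 7 microglia and 4 of 4 erythroid genes had a log2FC below 0, with 0 at an unadjusted p under 0.05 in both lists. All of these sums lay below the 1895 to 2462 CPM of the 10 arterial genes in controls and their 2046 to 2622 CPM in APP/PS1 libraries. The lists hold unlike numbers of genes and a sum is carried by its most abundant genes, so the sums do not measure the share of each cell type. Whether material of other cells has a part in the replicate pattern of the arterial genes was not tested.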

How the data were processed

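RNA of BECs from 5 control and 5 APP/PS1 libraries was analysed. By the methods and the labels, the authors used STAR (mm10) for alignment and HTSeq-count for gene counts, filtered low counts and computed log CPM with edgeR, and corrected for batch with ComBat of sva (versions not given in the sources used here). The deposited log2 CPM values were used as they stand. In each library, 100% of values converted back to whole adjusted counts within a tolerance of 0.05, with a prior count of 3 that understates changes of low genes. Symbols, positions and exon lengths came from GENCODE M21 (GRCm38), in which all 14106 genes were matched.

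Limma 3.58.1 in R 4.3.3 (lmFit, eBayes) was fitted to all genes with genotype and the replicate number as terms, leaving 4 residual degrees of freedom. The pairing follows the replicate numbers of the labels and the batch plot of the supplement. It was used because the deposited values were centred by these 5 pairs. The labels put replicates 4 and 5 into 1 batch, giving 4 batches, which was tried as an alternative. With the replicate block the p values measure only the spread of the differences within pairs of libraries, which may be technical. Fits were tested on simulated data. Arterial genes and lists were chosen with earlier results of these data known, so lists were described by counts and medians without a test. By the rule for named genes, all 10 arterial genes were named, and from the other lists up to 3 genes with the smallest unadjusted p under 0.05 and the 2 most abundant. A gene that the rule names is not reported here. For pericytes 1 such gene is given, and for fibroblasts and cells outside the vessel wall counts, medians and sums, with 1 astrocyte gene that carries its sum. The alternatives were no replicate block, 4 batches, an eBayes trend, median-centred libraries, library size alone, a prior count of 0.125, limma-voom, a mean of at least 1 log2 CPM, an adjusted p under 0.10, and each replicate left out.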

Additional observations from a re-analysis of the deposited data

Results flagged for a closer look

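In 20 groups of 5 libraries (10 arterial genes in 2 groups), 4 single libraries lay far from the other 4, with a gap to the nearest of more than 0.71 of the range of the group. About 1 in 20 groups would show this by chance. Efnb2 was high in control replicate 2, at 7.36 log2 CPM, and low in APP/PS1 replicate 2, at 7.12. Gja5 was low in control replicate 4, at 3.72 log2 CPM, and high in APP/PS1 replicate 4, at 4.02. Because pairs were centred by the batch correction, the 2 libraries named for each gene are mirror images and count as 1 departure per gene.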

How the results depend on the processing

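Of 130 values of single arterial genes under 13 alternatives, 121 kept the direction of the reported value and 9 had the opposite direction. The log2FC cannot change with no replicate block, 4 batches, an eBayes trend or a mean of at least 1 log2 CPM. Its direction was fixed in advance in these fits. Of the 9, all but that of Vegfc by library size alone came from leaving out 1 replicate. The adjusted p from limma lay between 0.112 and 0.9998, so that no arterial gene was called under any alternative. With library size alone, the log2 fold change of Vegfc was −0.013. Leaving out 1 replicate gave log2 fold changes from −0.027 to 0.20 for Bmx, −0.020 to 0.11 for Vegfc, −0.20 to 0.24 for Fbln5, −0.22 to 0.081 for Gkn3, −0.17 to 0.16 for Mgp and −0.020 to 0.49 for Gja4. The median of the 10 genes then ran from −0.020 to 0.21, and the number above 0 from 4 to 9. The number without overlap ran from 0 to 3, beside 11.2% to 24.9% of all genes. The number at an unadjusted p under 0.05 ran from 0 to 2, beside 5.30% to 14.2% of all genes. Both the highest arterial counts and the highest shares were those without replicate 2. Vegfc did not overlap without replicate 3, as for 11.2% of all genes. The number called among all genes ran from 0 to 5. Without the replicate block, 648 of all genes were called and 0 of the arterial genes. In that fit 1 arterial gene, Sox17, had an unadjusted p under 0.05, beside 21.6% of all genes. The fit has 8 residual degrees of freedom in place of 4. Those used by the batch correction are not taken off, so its p values tend to be too small. Sox17 was also the 1 arterial gene at an unadjusted p under 0.05 with 4 batches, with an eBayes trend and by limma-voom. The shares of all genes under 0.05 were 11.4%, 8.23% and 7.27% in these fits. With 4 batches 1 of all genes, Sox10, was called. Scaling by library size alone moved the all-gene median log2FC from −0.0038 to −0.041. Replicate 1 held at most 22993426 adjusted counts in a library, which limits the precision of its weaker genes.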
